A study of Mus musculus with 5 samples.

Results

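Malat1, Meg3, Snhg11, Miat, Gas5, Neat1 and Rian are long noncoding RNAs (lncRNAs) that were chosen by name, and all 7 were found among the 15093 genes measured in RNA pulled down with tagged ribosomes from the mouse central amygdala (CeA). RefSeq classes 601 of those genes as lncRNA, the 7 included, and 13566 as protein coding. Translating ribosome affinity purification (TRAP) was carried out in adult Drd2-TRAP mice, a cross of a Drd2-Cre BAC transgenic line with a Rosa26 fs-TRAP line in which Cre permits expression of EGFP fused to the ribosomal protein Rpl10a. Both groups carried both transgenes, and since Cre acts permanently, the tag marks cells in which the Drd2-Cre transgene was active at any time. The 3 fear conditioned libraries (replicates 2, 3 and 4, written FC2, FC3 and FC4) and the 2 control libraries (replicates 6 and 7, written C6 and C7) each came from bilateral CeA punches pooled from 3 animals, collected 2 h after the session. The labels call the controls home cage animals and place collection after extinction, whereas the text of the study describes tone presentation without shock and collection after conditioning, so neither the control treatment nor the session is settled here.

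An mRNA is held by ribosomes while it is translated, whereas most lncRNAs lack a long reading frame and several of these stay in the nucleus. Malat1 lies in nuclear speckles and Neat1 builds paraspeckles, both from neighbouring genes on chromosome 19. Meg3 and Rian are maternally expressed RNAs of the imprinted Dlk1-Dio3 region on chromosome 12. Gas5 and Snhg11 host small nucleolar RNAs in their introns, and spliced Gas5 is a known case of a noncoding RNA that ribosomes engage and nonsense-mediated decay removes. Miat is a nuclear RNA found in neurons. The level of such RNAs after a pull-down can therefore serve as a gauge of RNA that ribosomes do not hold, though a spliced cytoplasmic RNA may also meet a ribosome. RNA from before the pull-down was not analysed here, so a level cannot be divided between RNA held by tagged ribosomes and RNA carried along.

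Sequences around the transcription start, from RefSeq on the build GRCm38.p6, are shown for 3 of the RNAs described below as lower in every fear conditioned library than in both controls. Meg3 and Gas5 hold the palindrome TGACGTCA, the full cAMP response element bound by CREB, and Snhg11 does not. Each line reads 5′ to 3′ on the strand of the gene, from 80 bases before the start through the first 50 bases of the transcript, with the palindrome in capitals. The stretches lie at chr12:109540916-109541045 (plus strand) for Meg3, at chr1:161035086-161035215 (plus strand) for Gas5 and at chr2:158375633-158375762 (plus strand) for Snhg11.
Meg3: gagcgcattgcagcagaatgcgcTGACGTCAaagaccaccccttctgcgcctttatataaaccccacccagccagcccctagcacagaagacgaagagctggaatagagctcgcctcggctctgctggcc
Gas5: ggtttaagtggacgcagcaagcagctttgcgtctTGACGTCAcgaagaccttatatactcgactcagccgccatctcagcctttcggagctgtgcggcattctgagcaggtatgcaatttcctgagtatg
Snhg11: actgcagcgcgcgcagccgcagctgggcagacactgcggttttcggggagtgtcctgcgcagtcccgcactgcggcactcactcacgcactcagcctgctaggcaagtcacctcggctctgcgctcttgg
The palindrome began at position -57 in Meg3 and at -46 in Gas5, counting the base before the start as -1. The letters TATATA followed at -27 in Meg3 and at -29 in Gas5. Over all 32851 RefSeq mouse windows of the same 300 bases, 1.79% held TGACGTCA, which reads alike on both strands, and 5.67% held TATATA on either strand. Windows were given for 6 of the 7 RNAs, with none for Neat1. Meg3 and Gas5 each had another start window without the palindrome, and the windows of Malat1, Miat and Rian held no full palindrome either. These matches describe letters and not binding.

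The values are counts scaled by the authors to 1000000 of an effective library size, written here as CPM. The scaled values were whole multiples of 1 read, which gave between 19605318 and 27937520 reads per library, and 3 reads were worth at most 0.158 CPM. The controls varied more, with a median standard deviation (SD) over genes of 0.77 on the log2 scale against 0.23 for the fear conditioned libraries. C7 listed 2681 genes at 0, C6 976, and the fear conditioned libraries 159 to 349. The list of Drd2 neuron genes summed to 19921 to 21659 CPM in the fear conditioned libraries, against 8889 in C6 and 13334 in C7, with Penk making up most of each sum. In the same list Gad1 had a log2 difference of 0.06 and Gad2 of -0.52.

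The 7 RNAs fell into an abundant and a scarce set when each CPM was divided by the deposited gene length in kilobases (kb). Malat1, Snhg11, Gas5 and Meg3 had means over the 5 libraries of 187, 119, 76.9 and 46.6 CPM per kb, and Miat, Rian and Neat1 had means of 2.48, 2.08 and 1.53. The gap between Meg3 and Miat was a mean log2 ratio of 4.43 ± 0.73 (SD, n = 5 libraries) and had the same direction in 5 of 5 libraries. Neighbours within each set were less firmly ordered. Malat1 exceeded Snhg11 in 4 of 5 libraries with a log2 ratio of 0.78 ± 0.89, Snhg11 exceeded Gas5 in 3 of 5 with 0.48 ± 0.79, and Gas5 exceeded Meg3 in 5 of 5 with 0.82 ± 0.46. Miat exceeded Rian in 2 of 5 libraries and Rian exceeded Neat1 in 4 of 5, with SDs of the log2 ratio of 3.76 and 4.67 and with both extremes in C7. Only the ratios of Gas5 to Meg3 and of Meg3 to Miat were larger than their SD.

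The abundant RNAs stood with the highest coding genes. Malat1 per kb was above 97.2%, 90.5% and 97.8% of protein-coding genes in FC2, FC3 and FC4 and above 97.9% and 98.4% in C6 and C7, which put it at 11.7 to 62.7 times the median coding gene of the same library. Snhg11 was above 87.2% to 93.5% of coding genes in the fear conditioned libraries and above 95.9% to 99.0% in the controls. Gas5 was above 86.3% to 91.1% and 94.3% to 96.4%, and Meg3 above 70.3% to 84.6% and 92.8% to 93.3%. Each of these 3 stood at a lower percentile in every fear conditioned library than in both controls. Malat1 ranked first by CPM among the 601 lncRNAs in 4 libraries and second in C6, where Snhg11 was first.

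Per kb, the scarce RNAs lay mostly below the median coding gene. Neat1 per kb was above 24.3%, 9.91% and 29.1% of coding genes in FC2, FC3 and FC4 and above 17.2% and 45.4% in C6 and C7. On that measure this partner of Malat1 in the nucleus was under the median in all 5 libraries. Neat1 had the greatest deposited length of the 7, at 23411 bases. Not divided by length, it was above 55.1%, 29.1% and 62.5% in FC2, FC3 and FC4 and above 45.7% and 78.5% in C6 and C7. Its place under the median thus depended on the division by length in FC2, FC4 and C7, but not in FC3 and C6. The CPM ratio of Malat1 to Neat1 was 62.5, 80.1 and 45.7 in FC2, FC3 and FC4 and 75.3 and 31.3 in C6 and C7. Miat per kb was above the median in C6 alone, at 53.3%, and stood between 20.9% and 38.3% elsewhere. Rian per kb was above 25.1% to 34.7% in the fear conditioned libraries, above 47.2% in C6 and above 16.2% in C7.

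**Figure D1:**
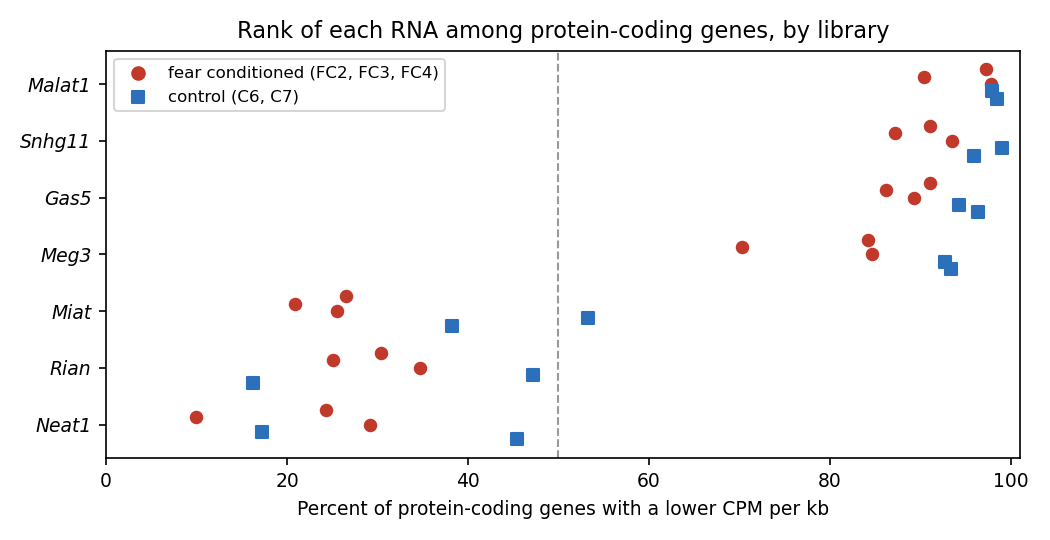
Percent of RefSeq protein-coding genes with a lower CPM per kb than each RNA (x axis), by library, with fear conditioned libraries as red circles and controls as blue squares, offset vertically so that each library can be seen. Malat1, Snhg11, Gas5 and Meg3 lay at 70.3% or above in every library, and Miat, Rian and Neat1 lay at 53.3% or below, with the dashed line marking the median coding gene.

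Summed over the 7 RNAs, the values were 2861, 1179 and 3011 CPM in FC2, FC3 and FC4 and 4799 and 5381 CPM in C6 and C7. Both controls were above all fear conditioned libraries, and FC3 was well below FC2 and FC4. As a share of all values, the 7 RNAs held 0.286%, 0.113% and 0.303% in FC2, FC3 and FC4 against 0.514% and 0.520% in the controls, or 0.234% ± 0.105 (SD, n = 3) against 0.517% ± 0.00432 (SD, n = 2). Malat1, Meg3 and Snhg11 together made up 88.4% to 93.1% of these sums, so the sums follow those 3 RNAs. The other RefSeq lncRNAs summed to 3481, 3439 and 3515 CPM in FC2, FC3 and FC4 against 4371 and 4654 in the controls, a ratio of means of 1.30 against 2.17 for the 7 RNAs. Against the sum of 14 reference coding genes, the log2 ratio of the 7 RNAs was -2.14, -3.34 and -2.02 in FC2, FC3 and FC4 and -1.09 and -1.24 in C6 and C7.

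The question of the fear conditioned against control comparison here was whether the gauge itself differed between the groups. No gene of the 13560 tested was called (0.0%) at an adjusted p under 0.05 with a log2 fold change beyond 0.5 by limma with Benjamini-Hochberg adjustment, where adjusted p reached 0.197 at the lowest. Before adjustment 2280 genes had a limma p under 0.05, 993 of them lower in fear conditioned libraries (7.32%), and 4 of the 7 RNAs were among the latter, namely Meg3, Snhg11, Gas5 and Miat. The same 4 were lower in all 3 fear conditioned libraries than in both controls, as were 16.1% of all genes tested. With 3 libraries against 2 an exact permutation test allows 10 splits and no p below 0.1. Nothing in the labels says that the pools of a group came from separate experiments, so all p-values measure the spread between these libraries.

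Meg3, a maternally expressed RNA abundant in the brain, was at 551, 236 and 542 CPM in FC2, FC3 and FC4 and at 1118 and 1331 CPM in C6 and C7. The groups were apart, with the highest fear conditioned value below the lower control. The means were 443 ± 180 (SD, n = 3) and 1224 ± 150 (SD, n = 2), a 2.76-fold higher control mean. On the log2(CPM + 1) scale the difference was -1.56 with a standard error (SE) of 0.42 and a 95% interval of -2.57 to -0.55 (limma, p = 0.00883 unadjusted, adjusted p = 0.206, exact two-sided permutation p = 0.1). Without FC3 it was -1.16.

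Snhg11, a snoRNA host gene expressed mainly in neurons, was at 411, 279 and 509 CPM in FC2, FC3 and FC4 against 1752 and 819 CPM in C6 and C7. The groups did not overlap, and C6 was the highest library. The log2 difference was -1.62 (SE 0.41, 95% interval -2.62 to -0.63, limma adjusted p = 0.200), a 3.22-fold higher control mean. Gas5 was at 188, 116 and 144 CPM against 233 and 418 CPM, again with no overlap but with C7 as the highest library. Its log2 difference was -1.09 (SE 0.34, 95% interval -1.91 to -0.26, limma adjusted p = 0.230). The 2 host genes thus gave opposite orders of the controls, and C7 was lower than C6 by -1.10 (log2) for Snhg11 and higher by 0.84 for Gas5.

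Miat was at 11.5, 7.16 and 11.3 CPM in FC2, FC3 and FC4 and at 59.9 and 18.6 CPM in C6 and C7. The fear conditioned values lay together below both controls, while C6 was far above C7. The log2 difference was -1.68 (SE 0.61, 95% interval -3.16 to -0.20, limma adjusted p = 0.257), and it was -0.86 without C6 and -2.50 without C7.

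Malat1 and Neat1, the RNAs of the nuclear bodies, overlapped between the groups. Malat1 was at 1662, 527 and 1750 CPM in FC2, FC3 and FC4 and at 1581 and 2708 CPM in C6 and C7, so C6 lay among the fear conditioned libraries. Its log2 difference was -0.84 (SE 0.59, 95% interval -2.27 to 0.58, limma adjusted p = 0.494), and without FC3 it was -0.28, without C7 -0.45 and without C6 -1.23. Neat1 was at 26.6, 6.58 and 38.3 CPM against 21.0 and 86.6 CPM. Its log2 difference was -1.12 (SE 0.89, 95% interval -3.27 to 1.03, limma adjusted p = 0.542), with -0.41 left when FC3 was omitted, -0.12 without C7 and -2.12 without C6. In both RNAs FC3 was the lowest and C7 the highest library.

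**Figure D2:**
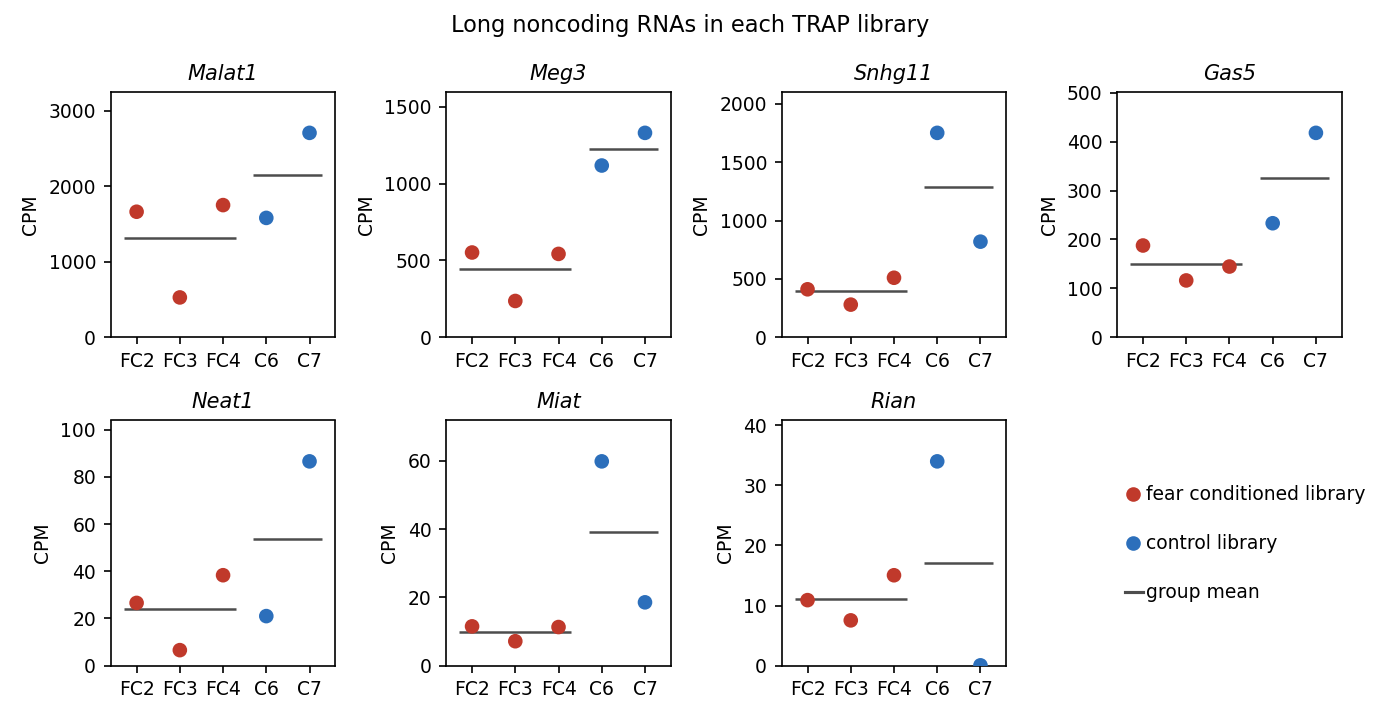
CPM of each RNA (y axis, linear from 0, with its own scale for each RNA) in each library (x axis), with 1 point per library, red for fear conditioned and blue for control, and a line at each group mean. Meg3, Snhg11, Gas5 and Miat were lower in all 3 fear conditioned libraries than in both controls, Malat1 and Neat1 overlapped, and Rian was at 0.0527 CPM in C7.

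Rian was at 10.9, 7.54 and 15.0 CPM in the fear conditioned libraries, at 34.0 CPM in C6 and at 0.0527 CPM in C7. These values stand for 230, 181, 303 and 1018 reads, with a single read in C7. C6 was thus the highest and C7 the lowest library, and the log2 difference between the groups was 0.96 (SE 1.42, 95% interval -2.47 to 4.39, limma adjusted p = 0.755). It was -1.57 without C7 and 3.48 without C6, so the direction rests on which control is counted. Meg3, from the same imprinted region, was 50.6, 31.3, 36.1 and 32.9 times Rian in FC2, FC3, FC4 and C6, and 25237 times Rian in C7. Of the 8669 genes that had at least 7.54 CPM in each of the other 4 libraries, 256 (2.95%) had no more than 3 reads in C7, against 7 of 7707 (0.0908%) in C6 and 0 in each fear conditioned library by the same rule. The 256 included 8 of the 64 lncRNAs of that set.

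**Figure D3:**
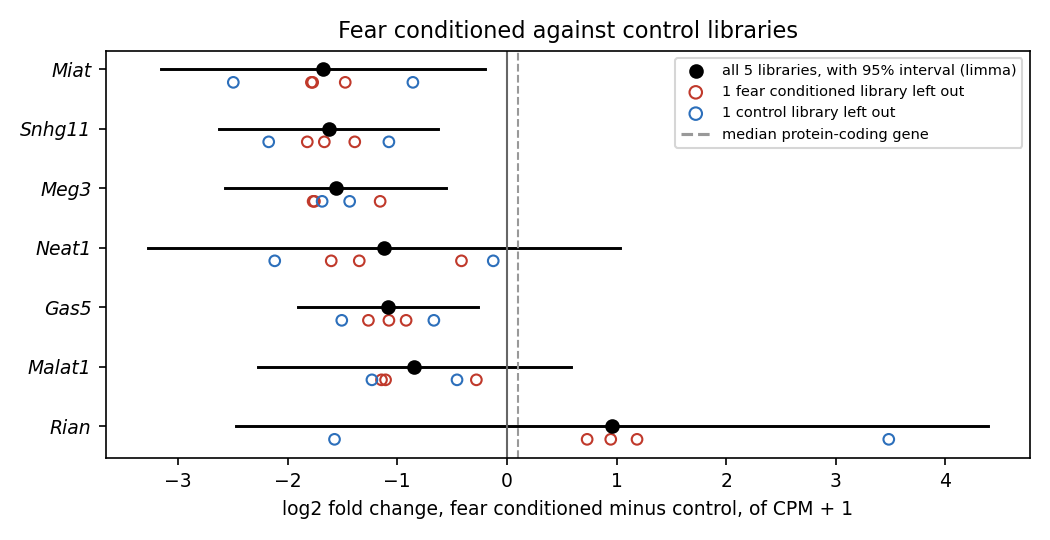
Log2 fold change of each RNA, fear conditioned minus control, of CPM + 1 (x axis), with black points and 95% intervals from limma on 5 libraries and open circles for the fits with 1 library left out (red, fear conditioned, and blue, control). The dashed line marks the median protein-coding gene. The intervals of Meg3, Snhg11, Gas5 and Miat lie below 0 before adjustment, those of Malat1 and Neat1 include 0, and Rian spans -1.57 to 3.48 with 1 library left out.

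Tests on the recovered reads gave more calls. DESeq2 called 4.42% of 14489 genes lower in fear conditioned libraries and called 4 of the 7 RNAs lower, Snhg11 (adjusted p = 0.00319), Meg3 (adjusted p = 0.0142), Miat (adjusted p = 0.0359) and Gas5 (adjusted p = 0.0485). The likelihood ratio test of edgeR called 2.51% of the same genes lower, and Snhg11 (adjusted p = 0.00445) and Meg3 (adjusted p = 0.0196) among the 7. The quasi-likelihood test of edgeR called none of the 7, and none of all genes, while 2404 had p under 0.05 before adjustment. The number of RNAs called by limma was 5 without C6, 4 of them lower and Rian higher in fear conditioned libraries, and 3 without C7, all lower, in fits in which the remaining control was assumed to vary like the fear conditioned libraries. Without C6 limma called 24.2% of 13268 genes lower and 36.2% higher, and without C7 it called 15.7% of 13550 genes lower.

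FC3 set itself apart from FC2 and FC4 in these RNAs. All 7 were lowest in FC3 among the 3 fear conditioned libraries, as were 4032 of the 12616 coding genes tested (32.0%). On the log2(CPM + 1) scale FC3 differed from the mean of FC2 and FC4 by -2.12 for Neat1, -1.69 for Malat1 and -1.21 for Meg3, and only 0.0221%, 0.111% and 0.701% of all genes tested were lower still. Snhg11, Rian, Miat and Gas5 were lower by -0.71, -0.69, -0.61 and -0.50, while the median of all genes was 0.02. The departure was greatest for Neat1 and Malat1, the RNAs of the nuclear bodies, and smallest for Gas5. The total of FC3 was not low, at 25022225 reads.

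**Figure D4:**
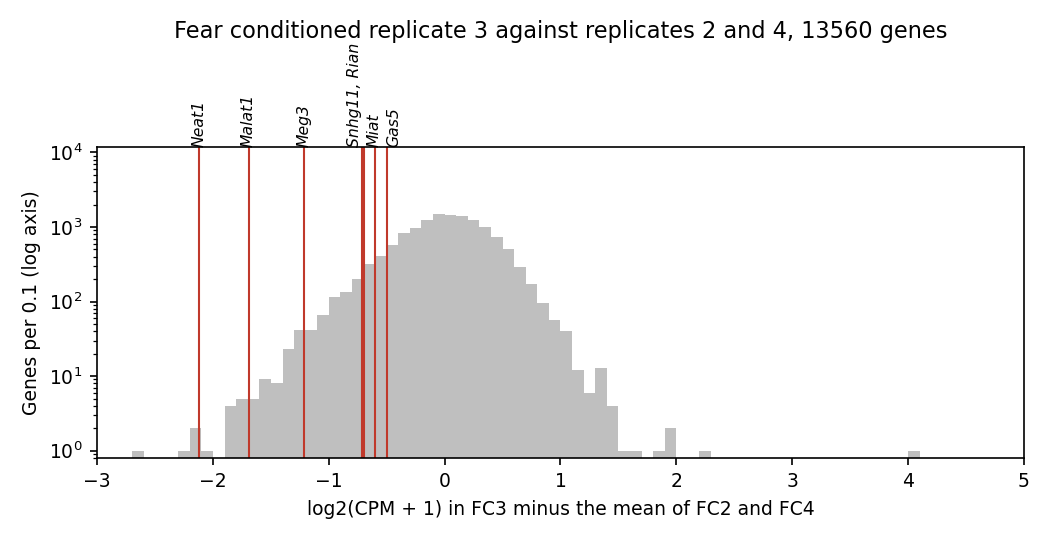
Number of genes (y axis, log scale) by their log2(CPM + 1) in FC3 minus the mean of FC2 and FC4 (x axis), for the 13560 genes tested, with red lines for the 7 RNAs. Neat1 at -2.12 and Malat1 at -1.69 lie in the far lower tail, and Gas5 at -0.50 lies nearest to the median of 0.02.

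Summed markers of oligodendrocytes and of astrocytes had the library order of the summed 7 RNAs, and summed markers of other untargeted cells did not. The 8 oligodendrocyte genes summed to 1860, 1274 and 2704 CPM in FC2, FC3 and FC4 and to 2792 and 5350 CPM in C6 and C7, with 7 of 8 lowest in FC3 among the fear conditioned libraries. The 7 astrocyte genes summed to 640, 500 and 660 CPM and to 1445 and 2378 CPM. Among the fear conditioned libraries 6 of 7 were lowest in FC3. Slc1a2 alone was at 843 CPM in C6 and 1905 CPM in C7, and the order of the controls in this sum rested on it. Slc1a3, Aqp4, Gjb6 and Aldh1l1 were lower in C7 than in C6, while Gja1 and Gfap were higher. No single RNA of the 7 had the order of their sum, which ran from FC3 through FC2, FC4 and C6 to C7. The oligodendrocyte and astrocyte sums ran in this order too. In each list 4 genes were lower in every fear conditioned library than in both controls, and none was higher in every one. Of all genes tested, 16.1% were lower and 20.2% higher in this way. Microglial genes summed to 92.7, 52.3 and 95.7 CPM against 103 and 83.1, with 6 of 7 lowest in FC3. Endothelial and mural genes summed to 50.1, 16.8 and 42.2 against 96.1 and 74.4. Their sum was also lowest in FC3 and higher in both controls than in any fear conditioned library, but FC2 exceeded FC4 and C6 exceeded C7. Drd1 neuron genes went the other way, at 218, 175 and 359 CPM against 109 and 100, and pallial glutamatergic genes, at 197, 180 and 45.0 against 296 and 257, were lowest in FC4. Choroid plexus genes summed to 57.8, 110 and 62.6 CPM against 1006 and 1415, with FC3 the highest fear conditioned library. Most of the fear conditioned sum was Clic6. Ttr, a defining choroid plexus gene, was at 0.522, 22.1 and 0.348 CPM in FC2, FC3 and FC4 against 913 and 1320 in the controls. Kcnj13, Folr1 and Aqp1 were at or near 0 in the fear conditioned libraries. In C6 and C7 Kcnj13 was at 11.2 and 5.80 CPM, Folr1 at 11.5 and 0.0527, and Aqp1 at 1.64 and 0. The glial genes Mbp and Slc1a2 were at 536 CPM and 274 CPM or more in every library. The part of these cell types in the values of the 7 RNAs was not tested. In such bulk RNA, fewer cells of a type and less RNA per cell cannot be told apart.

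**Figure D5:**
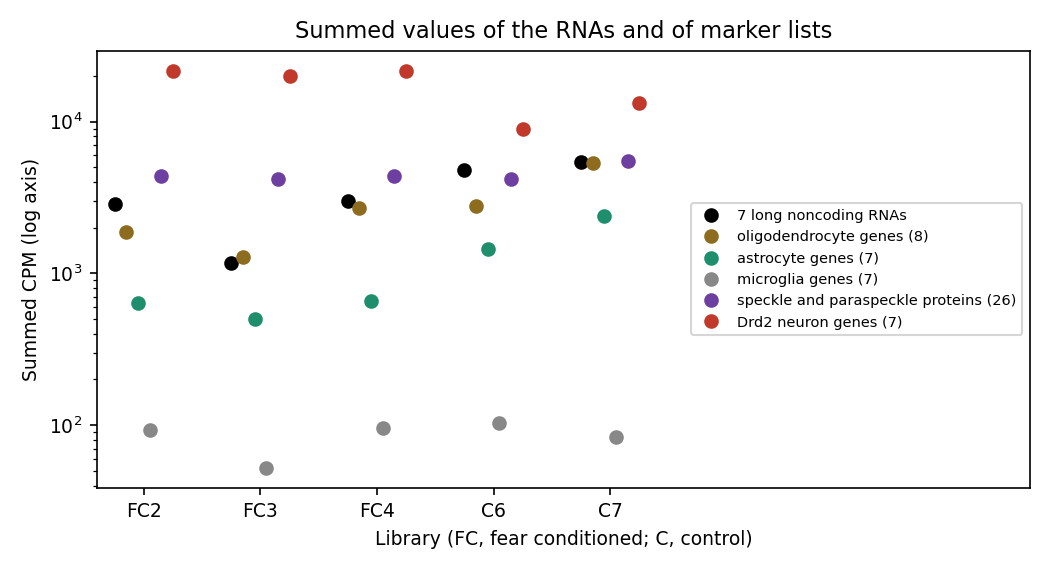
Summed CPM (y axis, log scale) of the 7 RNAs and of 5 gene lists in each library (x axis), with points offset sideways within a library. The 7 RNAs, oligodendrocyte genes and astrocyte genes were lowest in FC3 and highest in C7, whereas Drd2 neuron genes were lowest in C6.

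A list of 26 genes taken for proteins of speckles and paraspeckles varied much less in sum between the libraries than Malat1 and Neat1. The list also held Celf3, Celf4, Celf5, Qk and Sf1, and not all of its proteins belong to those bodies. The 26 genes summed to 4378, 4205 and 4397 CPM in FC2, FC3 and FC4 and to 4209 and 5493 CPM in C6 and C7. As for both RNAs, the lowest sum was in FC3 and the highest in C7. The median log2 difference of these genes was 0.08 over the 25 tested. Among them 4 were higher and 3 lower in all fear conditioned libraries than in both controls, where 20.2% of all genes were higher and 16.1% lower. The most abundant, Matr3, Celf4 and Hnrnpk, had log2 differences of -0.45, -0.46 and 0.28. The median departure of FC3 was -0.14 for the list, against a median of -0.71 and values from -2.12 to -0.50 for the 7 RNAs. A low FC3 was not particular to these RNAs. The median departure was -1.50 for endothelial and mural genes, -0.99 for microglial and -0.89 for oligodendrocyte genes. It was -0.69 for Drd1 neuron genes and -0.37 for astrocyte genes. Pallial glutamatergic and choroid plexus genes went the other way, at 0.81 and 0.63.

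Other snoRNA host genes were scarcer than Gas5 and Snhg11. The 12 found of 18 sought summed to 87.0, 58.4 and 75.3 CPM in FC2, FC3 and FC4 against 138 and 151 CPM in the controls. Their median log2 difference was -0.27, with 3 of 12 lower in every fear conditioned library, 0 higher, and 1 called lower by DESeq2. The shares over all genes were 16.1% lower and 20.2% higher, and 4.42% called lower by DESeq2. Zfas1 (listed as 1500012F01Rik) was at 22.8, 12.2 and 17.7 CPM against 35.1 and 55.6, and Snhg20 (listed as 2810008D09Rik) had a log2 difference of -1.70 (limma adjusted p = 0.217). Snhg12, at -0.40, overlapped. The 10 genes of nonsense-mediated decay had a median log2 difference of 0.37, with 3 higher and 1 lower in all fear conditioned libraries, beside the same shares of all genes.

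The neighbours of Meg3 and Rian in the Dlk1-Dio3 region did not move as a block. Dlk1, the paternally expressed gene of the region, was at 4.69, 3.00 and 2.53 CPM in FC2, FC3 and FC4 and at 19.8 and 57.0 CPM in C6 and C7, a log2 difference of -3.01 (limma adjusted p = 0.197). Its groups were apart in the direction of Meg3. Begain and Dio3 had log2 differences of 0.18 and 0.91. For Dio3 the SE was 0.96, and it had 0 reads in C7, while C6, at 5.74 CPM, was above FC2 and FC4. Mirg, an RNA further along the maternal transcripts, was at 4.31, 1.67 and 4.27 CPM against 4.04 and 1.79, and it shared the low FC3 value of Meg3. Rtl1 was at 0.948, 0.916 and 1.34 CPM, at 14.6 in C6 and at 0 in C7, the order of the controls that Rian had. Rtl1 lies antisense to RNAs of the maternal transcripts and RefSeq places it over parts of Meg3 and Rian, so reads of these genes cannot be told apart unless the counting used strand, which is not stated in the sources used here. Gas5 likewise overlaps Zbtb37, which was far lower, at 0 to 1.46 CPM.

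Of the 594 other RefSeq lncRNAs, 405 were tested, with a median log2 difference of 0.08 and 68 (16.8%) lower in all fear conditioned libraries, near the 16.1% of all genes. For the 12616 coding genes the median was 0.10 and the share 16.3%. The median log2 difference over all lncRNAs tested depended on the controls, at 0.84 without C6 and -0.31 without C7, and it was -0.52 over genes with at least 1 CPM in every library and -0.27 after quantile normalization. The median lncRNA per kb was at 1.48 CPM in C6 and at 0.0183 in C7. The median of the 7 RNAs was -1.12, a description of RNAs chosen with earlier results known. Among 23 further well known lncRNAs found of 33 sought, 21 were tested, with 4 higher and 7 lower in all fear conditioned libraries. Of all genes tested, 20.2% were higher and 16.1% lower in this way. Oip5os1 (listed as 1700020I14Rik), a cytoplasmic RNA that binds the microRNA miR-7, was at 64.7, 68.1 and 90.7 CPM against 185 and 277, a log2 difference of -1.60 (SE 0.29, limma adjusted p = 0.197). Tug1 was at 93.6, 239 and 151 CPM against 257 and 31.2, with its highest fear conditioned value in FC3. Xist, which coats the inactive X in female cells and is named here after its values were seen, was at 0, 0.125 and 0.199 CPM against 22.2 and 93.5, while the sex of the TRAP animals is not given in the sources used here. Sex and treatment therefore cannot be told apart for any of the 7 RNAs. None of the 15 RNAs of the mitochondrial genome sought by name was found, so that further gauge of RNA not held by cytosolic ribosomes was not used here.

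The genes whose pattern over the 5 libraries was nearest to each RNA were taken by Euclidean distance of centred log2(CPM + 1) values. Gas5 had the closest, 1500009L16Rik at a distance of 0.0473 and Rock1 at 0.110. Meg3 was nearest to S1pr5 (0.208), a receptor for sphingosine 1-phosphate, and Ctss (0.246), a lysosomal protease. Snhg11 was nearest to Hmgb2 (0.257) and Rnase4 (0.424), Miat to Leprel2 (0.305) and Kif6 (0.380), and Malat1 to Tmbim1 (0.370) and Eml2 (0.444). Neat1 was nearest to Pvalb (0.517) and Cd9 (0.713), and Rian to Il33 (0.246). Within the set, Snhg11 and Miat were the closest pair at 0.462, and Rian was at least 3.78 from every other RNA. With 5 libraries and all genes searched, small distances arise readily and are given as a description only.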

How the data were processed

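Ribosome-bound RNA was purified by TRAP from CeA punches pooled from 3 animals per library, converted with SMARTer and Nextera XT kits and sequenced as paired ends. The deposited values are a signal that the authors scaled to 1000000 of an effective library size, and the deposited gene length (another unit, in bases) gave CPM per kb. The submitters' processing notes name DESeq and the build mm8, while the aligner and the counting strand are not given in the sources used here. All deposited values were whole multiples of 1 read within 0.01, so reads were recovered (19605318 to 27937520 per library).

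The 7 lncRNAs and all gene lists were chosen with earlier results of these data known. The groups were compared by limma 3.58.1 (trended variance, R 4.3.3) on log2(CPM + 1) for the 13560 genes with a mean of at least 1 CPM, with Benjamini-Hochberg adjustment over all of them, and genes were called at an adjusted p under 0.05 with a log2 fold change beyond 0.5. The scripts were tested on simulated data. Alternatives were edgeR 4.0.16 and DESeq2 1.42.0 on recovered reads, other pseudocounts, filters and scalings, a spread estimated by group and leaving out each library. Biotypes, older names and start windows came from RefSeq (GRCm38.p6), which matched 14732 of 15093 genes. Coordinates of the start windows are those of GRCm38.p6, not of mm8, and no coordinates of whole genes were printed. All 7 lncRNAs were named, along with the 3 most abundant genes of each list (where named), the 2 genes nearest to each RNA in pattern (some genes are not reported here), and neighbouring or marker genes named after their values were seen.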

Additional observations from a re-analysis of the deposited data

How the results depend on the processing

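The number of the 7 RNAs called between the groups depended on the test. It was 0 by limma and by the quasi-likelihood test of edgeR, 2 by the likelihood ratio test of edgeR and 4 by DESeq2, and it ranged from 0 to 5 when 1 library was left out (5 without C6, of which Rian was higher, 3 without C7, and 0 without any fear conditioned library). Limma on 5 libraries and the quasi-likelihood test called none of all genes. Of 14489 genes the likelihood ratio test called 2.51% lower, and DESeq2 called 4.42% lower. In the fits with 1 control left, limma also called a large share of all genes, as given above. The counts from those fits therefore cannot be read as particular to the 7 RNAs. The number whose groups did not overlap was 4, all lower in fear conditioned libraries, where 16.1% of all genes tested were lower in this way. It was also 4 with any 1 fear conditioned library left out. With 1 control left out it is not given, since the share over all genes was not counted for a single control. Rian turned from 0.96 to -0.56 in both edgeR tests, to -0.59 in DESeq2 and to -1.57 without C7, with a range from -1.57 to 3.48 over the libraries left out. In C7 it rested on 1 read. The other 6 RNAs were lower in fear conditioned libraries under every one of 15 alternatives, with log2 differences from -2.17 to -1.08 for Snhg11, -1.77 to -1.16 for Meg3, -1.51 to -0.67 for Gas5, -2.50 to -0.86 for Miat, -1.23 to -0.28 for Malat1 and -2.12 to -0.12 for Neat1. The median percentile of the 7 RNAs among coding genes was 79.7 in fear conditioned libraries and 93.1 in controls per kb, 88.2 and 95.6 when values were not divided by length, and 92.5 in controls against coding genes with a mean of at least 1 CPM. No paired analysis was possible because the groups share no replicate numbers.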
